A study of Mus musculus with 31 samples.

Results

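The comparison described here is oleic acid against saline at 1.5 h after injection, in the lungs of female C57BL/6 mice of 6 weeks, read on 1-colour Agilent expression arrays with 1 mouse per array. Its members are 4 of the series' 31 arrays: oleic acid replicates 1 and 2 and saline replicates 1 and 2. The arrays were taken by their titles, and the third oleic acid array of this time was left out because the slope of its signal against the amount of the spiked-in control RNAs was 1.66, above a limit of 1.2. All mice had been anesthetized with xylazine and ketamine. The treated mice then received 200 µl holding 1.2 µl of oleic acid per g of body weight through the tail vein, and the control mice 200 µl of physiological serum by the same route, here called saline. No animal carried a named mutation or transgene. RNA was taken from whole lung, so that blood cells, airway, vessels and any attached tissue entered each sample, and fewer cells of a type cannot be told apart from less RNA per cell. The series covers 6 times from 1 to 24 h.

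Oleic acid in the blood reaches the lung capillaries first, injures their endothelium and lets protein-rich fluid leak into the air spaces, and it is used to model acute lung injury. In the first hours of lung injury, macrophages and vessel cells release cytokines and chemokines, neutrophils and platelets gather in the capillaries, and stressed cells switch on protective programmes. Among these are the antioxidant genes driven by the transcription factor Nrf2, while the adrenal stress hormone corticosterone switches on a separate set of genes through the glucocorticoid receptor.

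A value is the log2 processed signal of a probe minus the 75th percentile of its array, a difference is oleic acid minus saline on that log2 scale, and a range in parentheses after a difference is its 95% interval. The group means of all 12 groups were fitted with limma to the 29 arrays whose spike-in slope lay between 0.8 and 1.2 (0.937 to 1.06), and Benjamini-Hochberg adjustment of the p-values ran over 25115 genes or unnamed transcripts, 16673 of them with a current symbol. Of the 4 arrays, saline replicate 2 had 72.2% of its spots well above background, against 58.3% for saline replicate 1, 61.7% for oleic acid replicate 1 and 61.9% for oleic acid replicate 2. Across all features the arrays correlated at Pearson's r between 0.974 and 0.989, and the lowest 3 of the 6 values all involved saline replicate 2. Saline replicate 1 lay on slide 1 and the other arrays on slide 2, so the difference without saline replicate 1 is also the difference within slide 2. The standard error of a difference had a median of 0.31, and the number of arrays limits the precision. The tissue label held in all 4 mice: the surfactant gene Sftpc stood at 9.62 and 9.74 with saline and 9.69 and 9.38 with oleic acid.

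At 1.5 h no gene passed the threshold. In limma, 0 of 25115 features had an adjusted p under 0.05, the smallest adjusted p was 0.999947, and 357 features (1.42%) had an unadjusted p under 0.05, of which 149 (0.593%) were higher and 208 (0.828%) lower with oleic acid. Both oleic acid arrays lay above both saline arrays for 2761 features (11%) and below both for 3517 (14%). Differences were above 0 for 45.5% of features and below 0 for 54.5%, with a median of -0.02. The genes and groups below are therefore descriptions of 4 mice, and each difference is given as not having passed. Centring the arrays on the median in place of the 75th percentile moved the median of all features to 0.27, so that a group with a difference near 0 changes sign with the choice of scale.

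Among genes with a current symbol, measured above background in the higher group and without overlap of the groups, the 10 lower ones with the smallest unadjusted p were led by Ddit4, which encodes an inhibitor of the growth kinase mTOR that stress hormones and low oxygen induce. Ddit4 (probe at chr10:59412486-59412545 in mm9, as the array files give it) measured 5.48 and 5.41 with saline and 3.58 and 3.18 with oleic acid. Both saline mice lay far above both treated mice, and the difference was -2.07 (-2.99 to -1.15, unadjusted p = 0.000155). On the 25 other arrays Ddit4 ranged from 2.77 to 5.42, so the saline mice of 1.5 h stood at the upper edge of the series and the treated mice inside its range. The difference lay between -2.27 and -1.86 when any 1 of the 4 arrays was left out.

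Foxo3, a transcription factor of fasting and stress, measured 0.60 and 0.84 with saline and -1.11 and -0.13 with oleic acid, a difference of -1.34 (-1.98 to -0.71, unadjusted p = 0.000292). The groups did not overlap, but the treated mice were spread and a second probe of Foxo3 showed a difference of 0.07. Malat1, a long noncoding RNA of the nucleus, measured 2.57 and 2.72 with saline and 1.62 and 1.86 with oleic acid, a difference of -0.91 (-1.41 to -0.41). Pim3, a survival kinase, measured 3.24 and 3.42 against 2.22 and 2.11, a difference of -1.16 (-1.85 to -0.47). In both genes the replicates of a group lay closer to each other than to the other group.

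Slc6a4, the serotonin transporter that platelets and lung endothelium use to take up serotonin, measured -1.97 and -2.05 with saline and -2.71 and -2.90 with oleic acid. Ppbp, the platelet basic protein, measured 1.96 and 1.74 against 1.04 and 0.52. Both are taken up again with the platelet genes. Clec12b, a lectin receptor, measured -0.93 and -0.66 against -1.36 and -2.32, and its difference of -1.04 was -0.56 without oleic acid replicate 2. Sfrp5, a secreted antagonist of Wnt signals, had a difference of -1.40, and Cldn15, a claudin of cell junctions, one of -0.57. The Sfrp5 difference was -0.88 without saline replicate 2, whose value of 0.04 was the highest of the 4. Prdm12, a regulator of sensory neurons, was not well above background on either oleic acid array. Its signal there has no measured size. Raised to the lowest signal of any probe above background on those arrays, it was 3.85-fold lower with oleic acid on the processed signal. That floor is not the detection limit of this probe, so the fold is not a strict minimum. The fitted difference of Prdm12, -3.87, was -0.73 with normexp background correction and -0.76 in the values of the authors' deposited table, both smaller than that fold.

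Of the 10 higher genes, Slc7a11 had the largest fitted difference on the processed signal. It encodes the cystine importer that supplies cysteine for glutathione and is a known target of Nrf2 and of the amino acid stress factor Atf4. Slc7a11 (probe at chr3:50169700-50169759 in mm9) measured -6.97 and -6.92 with saline, not well above background in either mouse, and -4.67 and -3.20 with oleic acid, above background in both. With the same kind of floor it was 2.60-fold higher with oleic acid, again not a strict minimum. The fitted difference, which rests on the undetected saline signal, was 3.01 (1.30 to 4.71, unadjusted p = 0.00160). It was 0.43 with normexp background correction and 0.91 in the values of the authors' deposited table, both under that fold, so the size depended on how background was treated. The groups were well apart, with oleic acid replicate 2 the highest. On the other arrays Slc7a11 ranged from -7.20 to -2.71.

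Socs1, an inhibitor of cytokine receptor signalling, measured -0.97 and -1.09 with saline and 0.01 and 0.03 with oleic acid, a difference of 1.05 (0.40 to 1.70, unadjusted p = 0.00321). Each pair of mice was tight, and the 2 saline values lay at the lower edge of the range of the other arrays (-1.0 to 0.54). Nab2, a corepressor of Egr transcription factors, measured 1.25 and 1.29 against 1.85 and 1.74, a difference of 0.52, but the mean of its 2 probes gave -0.10. Cbr3, a carbonyl reductase, measured 2.72 and 2.64 with saline and 2.99 and 4.20 with oleic acid, so that its difference of 0.92 fell to 0.31 without oleic acid replicate 2. Zfp52, a zinc finger gene, had a difference of 0.89, Adora3, the adenosine A3 receptor, one of 0.73, Ly6g6e, of the Ly6 family, one of 0.60, Mical1, an oxidase that disassembles actin, one of 0.54, Fastkd3, a mitochondrial RNA-binding protein, one of 0.50 and Abcc3, an efflux pump for conjugated compounds, one of 0.49. Abcc3 was 0.25 without oleic acid replicate 2.

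**Figure D1:**
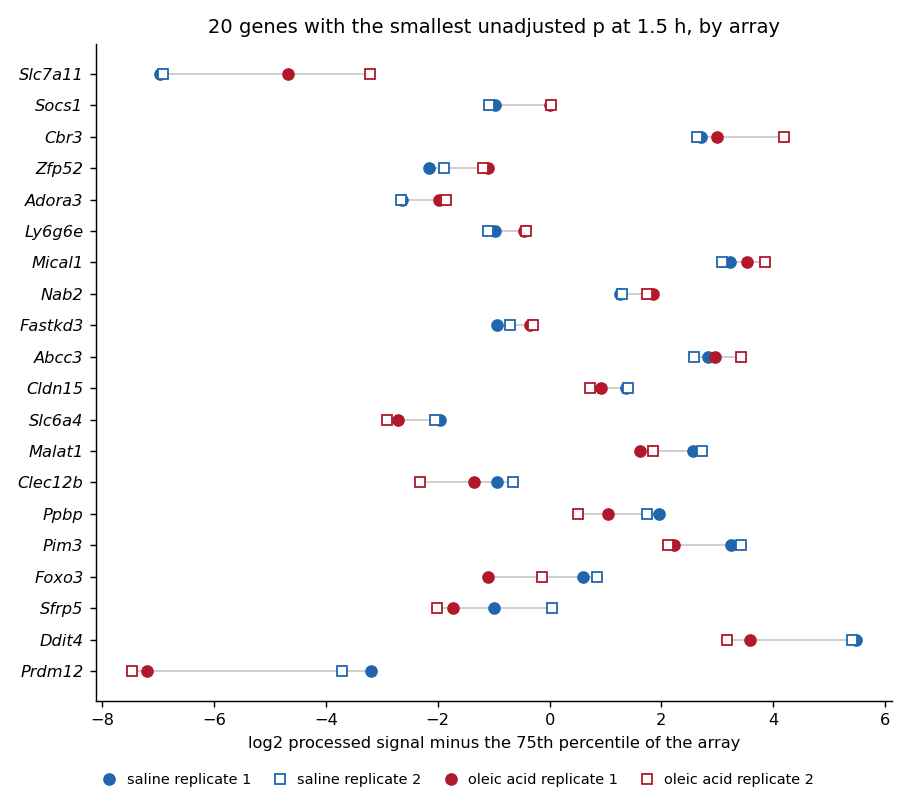
Values of the 10 lower and 10 higher genes with the smallest unadjusted p on each of the 4 arrays, as log2 processed signal minus the array's 75th percentile; blue is saline, red is oleic acid, filled circles are replicate 1 and open squares replicate 2. In each gene the 2 colours do not overlap, as the choice of genes requires, and Ddit4 lies at 5.48 and 5.41 with saline against 3.58 and 3.18 with oleic acid. Slc7a11 with saline and Prdm12 with oleic acid were not above background, so their distances are not measured sizes.

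Genes that the glucocorticoid receptor induces were mostly lower in the oleic acid mice. Of 18 measured members 16 had a difference below 0, the median was -0.60 beside -0.02 for all features, and in 9 members both treated mice lay below both saline mice, where 14% of all features did so. None passed, and 6 had an unadjusted p under 0.05, beside 1.42% of all features. The mean over the members was 3.74 and 4.29 on the saline arrays and 3.04 and 3.70 on the oleic acid arrays. Saline replicate 2 was the highest and oleic acid replicate 1 the lowest, and saline replicate 1 and oleic acid replicate 2 differed by little. The median was -0.29 without saline replicate 2, -1.05 without saline replicate 1, -0.35 without oleic acid replicate 1 and -0.16 with all 31 arrays, so its size depended on which mice were kept.

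Errfi1, an inhibitor of the epidermal growth factor receptor, measured 4.90 and 5.49 with saline and 3.15 and 4.09 with oleic acid, a difference of -1.58 (-2.62 to -0.53). Tsc22d3, the anti-inflammatory leucine zipper protein known as GILZ, measured 4.67 and 5.29 against 3.49 and 4.43, a difference of -1.02 (-1.91 to -0.13). Cdkn1a, the cell cycle inhibitor p21, measured 3.67 and 3.80 against 2.17 and 3.32, a difference of -0.99 (-1.92 to -0.06). In these 3 genes the groups did not overlap and oleic acid replicate 1 was the lowest array. With it left out, the differences were -1.11 for Errfi1, -0.55 for Tsc22d3 and -0.42 for Cdkn1a, and with all 31 arrays in the fit, the third oleic acid array included, Tsc22d3 turned to 0.13.

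Sgk1, a kinase that keeps the epithelial sodium channel at the membrane, measured 2.63 and 3.00 with saline and 2.13 and 2.50 with oleic acid, a difference of -0.50 (-0.99 to -0.01). Per1, a clock gene that the hormone also induces, measured 5.25 and 5.51 against 3.96 and 4.99, a difference of -0.91 (-1.91 to 0.09) that was -0.39 without oleic acid replicate 1. Nfkbia, the inhibitor of NF-kappaB, had a difference of -0.67 (-1.41 to 0.07). Fkbp5, a chaperone of the receptor and a widely used readout of it, measured 0.28 and 1.71 against -0.21 and 1.12, so that the groups overlapped, and its difference of -0.54 was 0.17 without saline replicate 2. The promoter of Sgk1 shows what a binding element of the receptor looks like. The sequence is RefSeq's for GRCm38.p6, chr10:21993640-21993889 on the + strand, the 250 bases before the transcript start, with capitals marking a match to GNACANNNTGTNC on either strand.

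Sgk1 promoter: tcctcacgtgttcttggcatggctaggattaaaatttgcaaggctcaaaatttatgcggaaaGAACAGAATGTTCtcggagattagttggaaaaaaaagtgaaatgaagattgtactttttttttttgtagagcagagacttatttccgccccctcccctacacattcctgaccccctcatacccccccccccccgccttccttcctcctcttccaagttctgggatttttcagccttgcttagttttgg

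The match starts 188 bases before the start. Of the 18 measured members 16 were listed with a promoter by RefSeq, and in 2 of them, Sgk1 and Mt1, a window held that motif. Counted by gene in the same way, 0.44% of 27025 genes held it. The members were picked as targets of the receptor, so the share describes the list and not the mice. A match in letters is a description and does not show binding.

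Immediate early genes, which are transcribed within minutes of a stimulus, were mostly lower at 1.5 h. Of 22 measured members 18 had a difference below 0, with a median of -0.23 that turned to 0.06 with median centring, and in 9 members both treated mice lay below both saline mice, where 14% of all features did so. The median was -0.45 without saline replicate 1, -0.21 without saline replicate 2 and -1.22 with the saline arrays of 1.5 and 3 h on slide 2 as the control. Fos, a part of the AP-1 factor, measured -0.89 and 0.42 with saline and 0.45 and -0.48 with oleic acid, and the groups overlapped. Egr1, a growth response factor, also overlapped, with 0.40 and 1.11 against 1.59 and 1.1. The lower members included factors of resting endothelium. Klf4, one of them, measured 2.88 and 3.27 against 1.52 and 2.56, a difference of -1.03 (-1.79 to -0.28). Klf2, which shear stress maintains, measured 4.11 and 4.19 against 3.21 and 3.52, a difference of -0.78 (-1.57 to 0.01). Dusp1, a phosphatase that ends MAP kinase signals and is shared with the glucocorticoid list, measured 2.71 and 3.43 against 2.38 and 2.06, a difference of -0.85 that was -0.50 without saline replicate 2.

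Genes of the Nrf2 antioxidant programme were mostly higher. Of 21 measured members 19 had a difference above 0, the median was 0.30, and in 8 members both treated mice lay above both saline mice, where 11% of all features did so. None passed, and 4 had an unadjusted p under 0.05, beside 1.42% of all features. The member mean was 2.25 and 2.31 on the saline arrays and 2.42 and 3.08 on the oleic acid arrays, so oleic acid replicate 2 carried most of the difference, and without it the median was 0.06, against 0.29 without saline replicate 2. The highest mean on the 25 other arrays was 3.06.

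Besides Slc7a11, Nqo1, which reduces quinones, measured -2.28 and -2.44 with saline and -2.10 and -0.21 with oleic acid. Only oleic acid replicate 2 stood far from the rest, and the difference of 1.21 (0.20 to 2.21) was 0.26 without it. Srxn1, which repairs oxidized peroxiredoxins, measured 1.68 and 1.40 against 1.83 and 2.41, a difference of 0.58 (0.08 to 1.08). Txnrd1, thioredoxin reductase, measured 3.11 and 3.14 against 3.45 and 3.73, a difference of 0.46 (0.05 to 0.88). In both the treated mice lay above the controls, with replicate 2 the higher. Gclc, the catalytic subunit of the first enzyme of glutathione synthesis, measured 3.53 and 3.77 against 3.83 and 4.50, a difference of 0.52 that was 0.18 without oleic acid replicate 2. Hmox1, heme oxygenase, measured 2.18 and 1.73 against 2.16 and 2.22, so the groups overlapped.

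The promoters of Slc7a11 and Txnrd1 are shown because they carry different elements. Both are RefSeq sequences of GRCm38.p6 covering the 250 bases before the transcript start, for Slc7a11 at chr3:50443614-50443863 on the - strand and for Txnrd1 at chr10:82858956-82859205 on the + strand. Capitals mark matches, on either strand, to TGATGNAA (the amino acid response element bound by Atf4) in Slc7a11 and to TGACNNNGC (the core of the antioxidant response element bound by Nrf2) in Txnrd1.
Slc7a11 promoter: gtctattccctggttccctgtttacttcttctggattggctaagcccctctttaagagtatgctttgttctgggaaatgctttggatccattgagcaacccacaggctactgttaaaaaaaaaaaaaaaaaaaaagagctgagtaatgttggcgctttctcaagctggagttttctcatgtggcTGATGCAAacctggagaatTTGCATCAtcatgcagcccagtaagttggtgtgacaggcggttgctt
Txnrd1 promoter: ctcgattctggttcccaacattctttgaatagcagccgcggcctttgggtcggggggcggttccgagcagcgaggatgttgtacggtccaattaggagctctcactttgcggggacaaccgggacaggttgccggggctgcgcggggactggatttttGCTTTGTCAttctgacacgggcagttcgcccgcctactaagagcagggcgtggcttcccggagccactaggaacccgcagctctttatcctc

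Slc7a11 has a pair of matches facing each other, TGATGCAA beginning 66 and TTGCATCA beginning 47 bases before the start, and Txnrd1 has 1 match beginning 92 bases before it. Of the 21 measured Nrf2 members 17 were listed with a promoter, 5 of them with TGACNNNGC and 1, Slc7a11, with TGATGNAA. Counted by gene in the same way, the shares among 27025 genes were 11.5% and 3.91%. The members were picked as Nrf2 and oxidative stress genes, so these counts describe the list and not the mice.

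Inflammatory signals were higher in some members and lower in others rather than higher as a group. Il1b, which encodes interleukin-1 beta, measured 0.15 and 0.91 with saline and 1.78 and 1.68 with oleic acid, a difference of 1.2 (-0.02 to 2.42). Tnf, tumour necrosis factor, measured -3.26 and -3.24 against -2.45 and -2.43, a difference of 0.81 (-0.79 to 2.41). In both, each treated mouse lay above each control, yet the intervals include 0, with standard errors of 0.58 and 0.76 beside a median of 0.31 over all features. On the 25 other arrays Il1b ranged from 0.22 to 3.25, which takes in all the values of 1.5 h except that of saline replicate 1. In 4 of 13 measured cytokines both treated mice lay above both controls and in 2 below both, where 11% and 14% of all features did so. The differences ran from -0.62 to 1.2, with 8 above 0, 5 below 0 and a median of 0.15. That median was 0.0043 with normexp background correction, 0.08 without oleic acid replicate 1, 0.25 without oleic acid replicate 2 and -0.10 with all 31 arrays. Il6 was well above background on 1 of the 4 arrays, an oleic acid one. Acute phase genes were split, with 9 of 18 above 0 and 9 below, a median of 0.04 and a range of -2.71 to 1.35. Without saline replicate 2 that median was -0.22, with 14 members below 0. NF-kappaB feedback genes had 8 of 14 above 0 and a median of 0.05, which was -0.27 with all 31 arrays.

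Of 18 measured chemokines 12 had a difference above 0, with a median of 0.13, and in 6 both treated mice lay above both controls, where 11% of all features did so. The differences ran from -1.13 to 1.04, with 6 below 0. The median was 0.05 without oleic acid replicate 2, 0.13 without saline replicate 2 and -0.09 with the saline arrays of 1.5 and 3 h on slide 2 as the control. Ccl12, a monocyte attractant, measured -2.18 and -2.17 with saline and -1.46 and -0.81 with oleic acid, a difference of 1.04 (0.11 to 1.96). Ccl2, which acts on the same receptor, measured -2.0 and -1.66 against -1.22 and -1.41, a difference of 0.51 (-1.13 to 2.15). The neutrophil attractant Cxcl2 was not well above background on any of the 4 arrays, and Cxcl1 was above it on 1 array of each group. Ptgs2, the inducible cyclooxygenase, measured -3.92 and -3.66 against -3.14 and -2.68, a difference of 0.88 (0.24 to 1.53), which was -0.13 with all 31 arrays.

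Neutrophil genes were mostly higher, with 20 of 25 measured members above 0, a median of 0.31, and 10 members in which both treated mice lay above both controls, where 11% of all features did so. Without saline replicate 2 the median was 0.26, with 16 members above 0 and 9 below, and with all 31 arrays it was 0.12. S100a8 and S100a9 encode the 2 chains of calprotectin, the main cytosolic protein of neutrophils. S100a8 measured 4.62 and 4.76 with saline and 5.44 and 5.21 with oleic acid, a difference of 0.63 (-0.38 to 1.64). S100a9 measured 6.84 and 7.07 against 7.61 and 7.45, a difference of 0.58 (-0.59 to 1.74). Stfa2l1, a stefin of neutrophils, measured -0.68 and -0.07 against 0.70 and 0.58, and Clec4e, the lectin Mincle, had a difference of 0.62 that was 0.37 without saline replicate 2. Over the list the means were 1.58 and 1.12 with saline and 1.79 and 1.55 with oleic acid, so that the saline replicate 1 mouse lay above oleic acid replicate 2 and the group means overlapped. The 25 other arrays ranged from 0.79 to 2.33.

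Monocyte and interstitial macrophage genes were split, with 8 of 15 above 0 and a median of 0.04 (0.12 without saline replicate 2). In 7 of the 15, however, both treated mice lay above both controls, where 11% of all features did so. In 1 both lay below, where 14% of all features did so. The differences ran from -0.50 to 0.89, with 7 below 0, and the members named next are all among the higher ones. Cx3cr1, the fractalkine receptor of patrolling monocytes, measured 0.76 and 0.51 against 1.35 and 1.56, a difference of 0.82 (0.11 to 1.53). Plac8, a marker of inflammatory monocytes, measured 3.34 and 2.89 against 3.44 and 4.52, a difference of 0.87 (0.03 to 1.71) that was 0.33 without oleic acid replicate 2. Ccr2, the receptor for Ccl2 and Ccl12, measured -0.54 and -0.45 against -0.32 and 0.53, a difference of 0.60 that was 0.18 without oleic acid replicate 2. Alveolar macrophage genes showed 8 of 16 above 0 and a median of -0.01.

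Interferon-induced genes leaned the same way in 24 of 25 members, by small amounts, with a median of 0.25. In 13 members both treated mice lay above both controls, where 11% of all features did so. Only 1 member had an unadjusted p under 0.05, beside 1.42% of all features. It was Mx1, an antiviral GTPase, which measured -1.70 and -2.35 with saline and -1.39 and -0.82 with oleic acid, a difference of 0.92 (0.26 to 1.57). Zbp1, which detects nucleic acids in the Z form, measured 0.34 and -0.43 against 0.55 and 1.12, and Isg15, a ubiquitin-like protein, 3.19 and 2.87 against 3.30 and 3.57. In these genes saline replicate 2 was the lowest array and oleic acid replicate 2 the highest. The list mean was 0.64 and 0.45 with saline and 0.72 and 1.01 with oleic acid, and the median was 0.11 without oleic acid replicate 2 and 0.23 without saline replicate 2.

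Isg15 is printed as the example of a promoter of this group, with matches to TTTCNNTTTC, the core of the interferon-stimulated response element, on either strand in capitals. The RefSeq sequence lies in GRCm38.p6 at chr4:156200819-156201068 on the - strand and ends at the transcript start.

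Isg15 promoter: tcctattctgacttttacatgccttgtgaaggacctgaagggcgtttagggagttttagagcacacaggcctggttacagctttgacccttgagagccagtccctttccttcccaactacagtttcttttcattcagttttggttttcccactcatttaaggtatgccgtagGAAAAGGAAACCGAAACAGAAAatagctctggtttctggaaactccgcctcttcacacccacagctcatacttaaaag

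The capitals hold 3 overlapping matches, which begin 78, 72 and 66 bases before the start. Among the 18 members listed with a promoter, 10 held the motif, among them Cxcl10, Ifit1, Ifit3 and Rsad2, against 3.46% of 27025 genes. The members of the list were picked as interferon targets, so the share describes the list and not the mice.

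**Figure D2:**
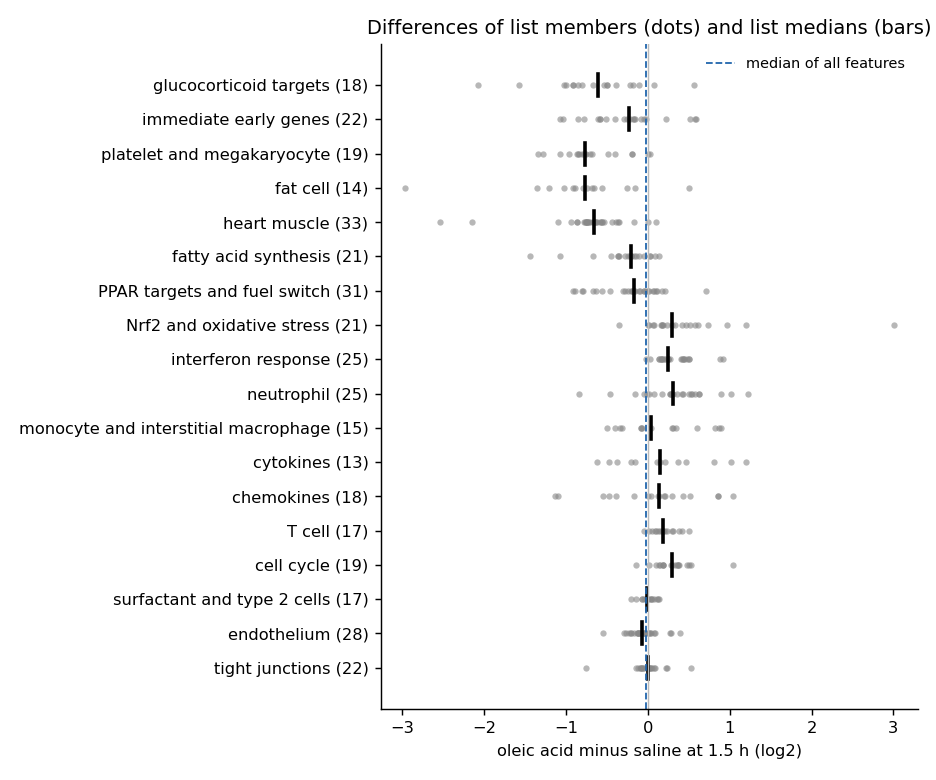
Difference between oleic acid and saline at 1.5 h (log2) of each measured member of 18 gene lists, with the number of members in brackets; black bars are list medians and the dashed line is the median of all features, -0.02. Glucocorticoid, platelet, fat cell and heart muscle members lie mostly to the left, Nrf2, interferon and neutrophil members mostly to the right, and surfactant, endothelial and tight junction members around 0.

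Genes of platelets and their precursors, the megakaryocytes that the lung also houses, were lower. Of 19 measured members 17 had a difference below 0, the median was -0.76, and in 14 both treated mice lay below both controls, where 14% of all features did so. None passed, and 5 had an unadjusted p under 0.05, beside 1.42% of all features. The list mean was 0.21 and -0.02 with saline and -0.28 and -0.88 with oleic acid, with each treated mouse below each control and oleic acid replicate 2 the lowest. The median was -0.61 without saline replicate 1, -0.89 without saline replicate 2, -0.99 without oleic acid replicate 1 and -0.43 without oleic acid replicate 2, and it was -0.47 with median centring. On the 25 other arrays the mean ranged from -0.84 to 0.93, so oleic acid replicate 2 had the lowest of all.

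Ppbp had a difference of -1.07 (-1.74 to -0.41, unadjusted p = 0.00309) and Slc6a4 one of -0.80 (-1.25 to -0.35, unadjusted p = 0.00146), from the values given above. Itga2b, the alpha chain of the platelet fibrinogen receptor, measured -0.82 and -1.21 with saline and -1.48 and -3.10 with oleic acid, and its difference of -1.27 was -0.46 without oleic acid replicate 2. Alox12, the platelet lipoxygenase, measured 0.35 and 0.08 against -0.31 and -0.77, a difference of -0.75 (-1.37 to -0.14). Gp5 and Gp9 encode parts of the receptor for von Willebrand factor. Gp5 measured -1.16 and -1.57 against -1.77 and -2.69, a difference of -0.86 (-1.67 to -0.06). Gp9 measured 1.00 and 0.45 against 0.31 and -0.52, a difference of -0.83 (-1.73 to 0.06). Clec1b, the podoplanin receptor CLEC-2, had a difference of -0.68. Pf4, platelet factor 4, overlapped, with 3.75 and 2.87 against 2.88 and 2.76, and its difference of -0.49 was -0.05 without saline replicate 1.

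Heart muscle genes were high in 1 saline mouse. The mean of 33 measured members was 1.33 on saline replicate 1, 2.35 on saline replicate 2, 0.94 on oleic acid replicate 1 and 1.32 on oleic acid replicate 2. Saline replicate 2 was the highest of the 29 arrays, the 25 arrays of other times reaching 1.75. Of the members 31 had a difference below 0, with a median of -0.66. In 16 both treated mice lay below both controls, where 14% of all features did so. An unadjusted p under 0.05 was seen in 9 members, beside 1.42% of all features. Without saline replicate 2 the median was -0.22, with 27 members still below 0.

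Nppa, the atrial natriuretic peptide, measured 3.81 and 7.36 with saline and 3.11 and 3.78 with oleic acid, and its difference of -2.14 (-4.05 to -0.23) was -0.37 without saline replicate 2. Myh6, the myosin heavy chain of the atrium and adult mouse heart, measured 6.56 and 7.42 against 6.07 and 6.43, a difference of -0.74 that was -0.31 without that array. Tnni3, cardiac troponin I, measured 2.74 and 3.57 against 2.12 and 2.46, with -0.87 and -0.45 in the same order. Tnnt2, cardiac troponin T, measured 4.05 and 4.82 against 3.56 and 3.88, with -0.71 and -0.33. Mybpc3, cardiac myosin-binding protein C, measured 0.95 and 1.94 against 0.20 and 0.82, with -0.94 and -0.44. In all 5 genes saline replicate 2 was the highest array, and the other saline mouse lay next to the treated ones. The share of this tissue in any other difference was not tested.

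Fat cell genes were lower as well, with 13 of 14 measured members below 0 and a median of -0.77. In 12 members both treated mice lay below both controls, where 14% of all features did so. The mean was 1.80 and 2.07 with saline and 1.18 and 1.03 with oleic acid, and the groups did not overlap. Adipoq, the fat cell hormone adiponectin, measured 2.35 and 2.29 against 1.51 and 1.09, a difference of -1.02 (-2.73 to 0.69). Cfd, the complement factor adipsin, measured 5.76 and 5.77 against 5.04 and 4.09, a difference of -1.2 (-2.56 to 0.16). Retn, resistin, measured 2.55 and 3.09 against 1.76 and 1.18, a difference of -1.35 (-2.80 to 0.10). Plin1, the protein that coats fat droplets in fat cells, had a difference of -0.75 (-2.34 to 0.85). Each control lay above each treated mouse, but the intervals include 0. On the 25 other arrays the list mean ran from -0.27 to 2.91, which takes in all 4 values of 1.5 h. Without saline replicate 2 the median was -0.56 and all 14 members were below 0, but with the saline arrays of 1.5 and 3 h on slide 2 as the control the median was -0.23.

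**Figure D3:**
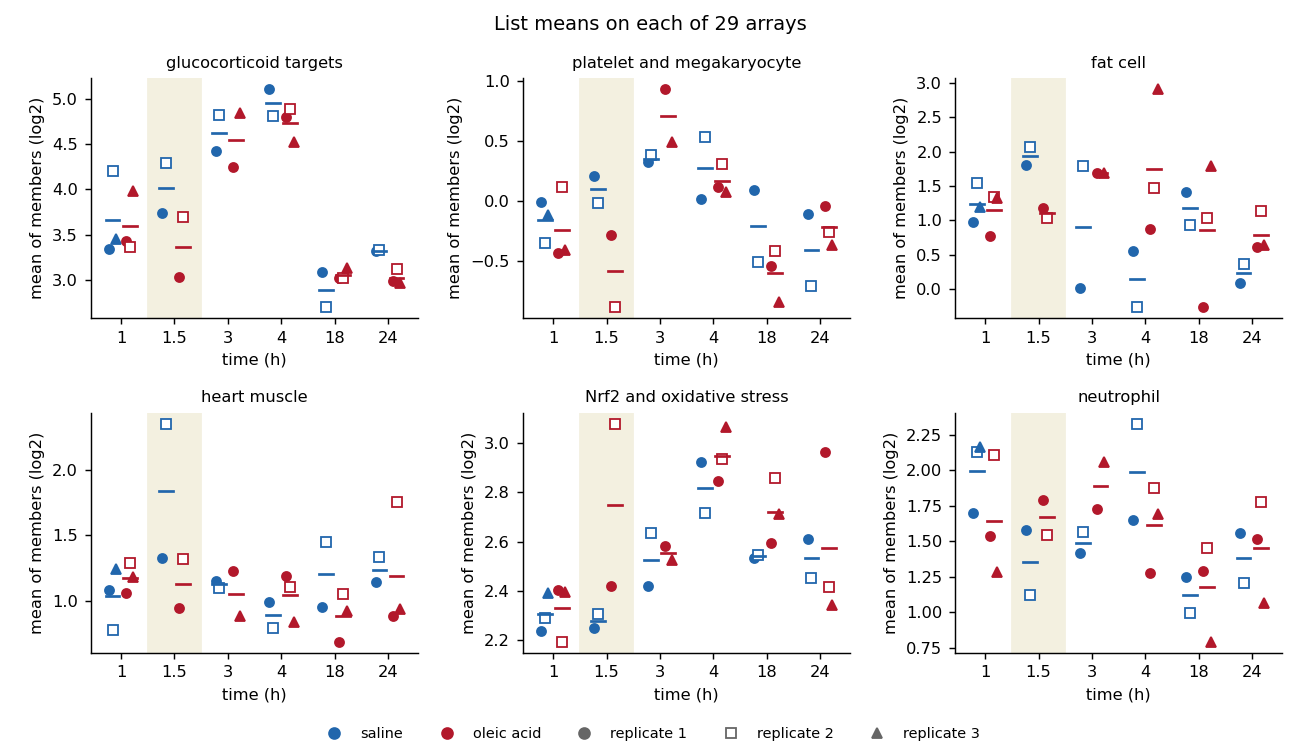
Mean of the members (log2) of 6 gene lists on each of the 29 arrays by time in hours; blue is saline, red oleic acid, circles, squares and triangles are replicates 1, 2 and 3, horizontal lines are group means and the shaded column is 1.5 h. Saline replicate 2 of 1.5 h has the highest heart muscle mean (2.35), oleic acid replicate 2 of 1.5 h has the lowest platelet mean (-0.88) and the highest Nrf2 mean (3.08).

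Most genes that handle fatty acids measured lower in the mice that had received one, but list medians changed sign with the scale. Peroxisome proliferator-activated receptors (PPARs) sense fatty acids and induce genes that store and burn them. Of 31 measured PPAR targets and fuel switch genes 22 had a difference below 0, with a median of -0.17 that turned to 0.12 with median centring. In 10 both treated mice lay below both controls, where 14% of all features did so. Angptl4, an inhibitor of lipoprotein lipase and a sensitive PPAR target, measured 4.12 and 5.20 with saline and 3.22 and 4.49 with oleic acid, so the groups overlapped, and its difference of -0.80 (-2.29 to 0.68) was -0.27 without saline replicate 2. Pdk4, which spares glucose by blocking pyruvate oxidation and is also a glucocorticoid target, measured 0.45 and 1.86 against -0.24 and 0.71, a difference of -0.92 (-1.98 to 0.15) that was -0.21 without the same array. Plin2, a droplet coat protein found in most cells, measured 3.94 and 4.04 against 3.63 and 3.75, a difference of -0.30 (-0.79 to 0.19).

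Of 21 measured genes of fatty acid synthesis 17 had a difference below 0, with a median of -0.21 (0.08 with median centring). In 11 both treated mice lay below both controls, where 14% of all features did so. Fasn, fatty acid synthase, measured 1.75 and 1.89 with saline and 1.40 and 0.91 with oleic acid, a difference of -0.67 (-1.19 to -0.15). Elovl6, which lengthens palmitate, measured 0.92 and 1.59 against 0.17 and 0.19, a difference of -1.07 (-2.15 to 0.0048). Genes of this pathway are also expressed in fat cells, whose markers were lower in the same mice, and the part of these in the difference was not tested. Cholesterol synthesis had a median of -0.06 over 25 genes.

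Most lists of the lung's barrier had medians close to that of all features at 1.5 h, the sodium channel and pump list less so. Surfactant and type 2 cell genes had a median of -0.01 over 17 genes, with differences between -0.21 and 0.14, and Sftpc had a difference of -0.15 (-0.77 to 0.47). Aquaporins and type 1 cell genes had a median of -0.02 over 16 genes (-0.27 to 0.44). The sodium channel and pump genes that drive fluid out of the air spaces had a median of -0.16 over 11 genes, 0.13 with median centring, 0.61 with all 31 arrays, -0.01 without saline replicate 2 and -0.04 without oleic acid replicate 1. Scnn1a, the alpha subunit of the channel, measured 5.10 and 5.29 with saline and 5.09 and 4.95 with oleic acid, a difference of -0.17 (-0.55 to 0.20) that turned to 0.11 with median centring. Neither interval reaches a 2-fold change, which is 1 on this scale.

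Endothelial genes had a median of -0.07 over 28 genes, with 8 above 0, and tight junction genes one of 0.00 over 22 genes. The differences ran from -0.55 to 0.39 in the first list and from -0.75 to 0.53 in the second. The selectins and other adhesion molecules of vessels had a median of -0.04 over 9 genes (-0.51 to 0.18). Coagulation and fibrinolysis genes had 6 of 18 above 0 and a median of -0.03. F3, tissue factor, which starts coagulation, measured 2.43 and 2.62 against 1.96 and 2.35, a difference of -0.37 (-0.99 to 0.25). Genes of vessel tone and permeability had a median of -0.09 over 25 genes and the widest range of these lists, -2.54 to 0.88. The low end of that range, -2.54, is a member shared with the heart muscle list, whose mean was highest on saline replicate 2. Median centring raised each of these medians above 0.

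Several further groups leaned 1 way by small amounts without a member that passed. Cell cycle genes had 18 of 19 members above 0 and a median of 0.29, which was 0.15 with 15 members above 0 without saline replicate 2, and Cdc20, an activator of mitotic exit, measured 0.37 and -0.05 with saline and 0.64 and 0.74 with oleic acid. T cell genes had 16 of 17 above 0 and a median of 0.19, and Cd5, a receptor of T cells, measured 0.60 and 0.50 against 1.17 and 0.93. Matrix and fibroblast genes had 16 of 20 above 0 and a median of 0.13. Heat shock genes had 13 of 14 below 0 and a median of -0.21, which was 0.07 with median centring and -0.09 without saline replicate 2. Hspa1a, the inducible Hsp70, measured -1.30 and -0.23 against -1.81 and -1.80, and its difference of -1.04 (-3.11 to 1.02) was -0.50 without saline replicate 2. Clock genes had 14 of 16 below 0 and a median of -0.31, which was -0.14 without saline replicate 2. Mesothelial genes had 12 of 14 below 0 and a median of -0.14, which turned to 0.15 with median centring. Txnip, a thioredoxin inhibitor that glucose induces, measured 5.38 and 5.72 against 4.83 and 4.93, a difference of -0.67 (-1.35 to 0.01).

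**Figure D4:**
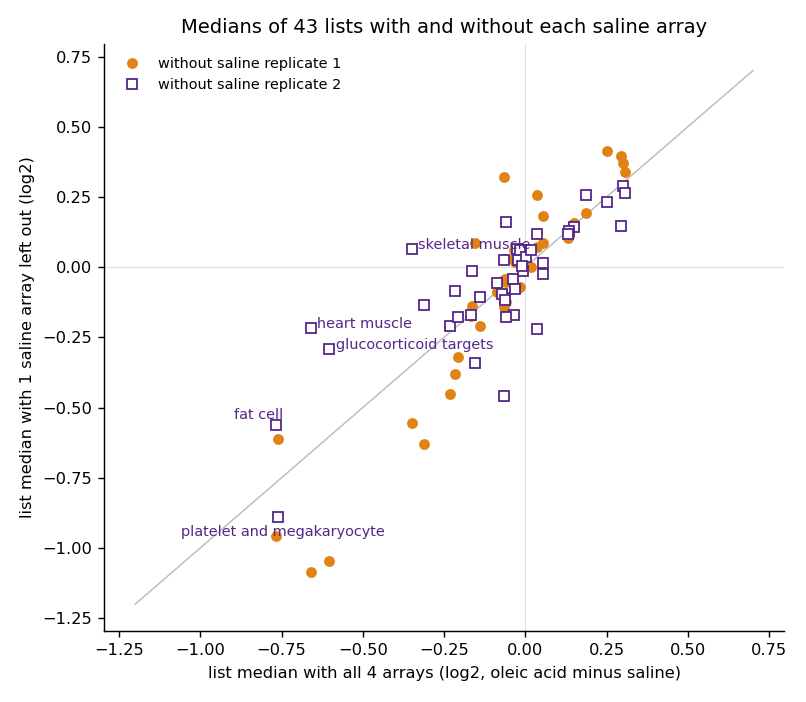
Medians of the 43 lists (log2, oleic acid minus saline) with all 4 arrays on the horizontal axis and with 1 saline array left out on the vertical axis; orange circles leave out saline replicate 1, violet squares saline replicate 2 and the grey line marks equal values. Heart muscle moves from -0.66 to -0.22 and glucocorticoid targets from -0.60 to -0.29 without saline replicate 2. On the same change platelet genes go from -0.76 to -0.89 and fat cell genes from -0.77 to -0.56.

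Whether the difference at 1.5 h departed from that at the neighbouring times was tested as the difference at 1.5 h minus the mean of those at 1 and 3 h. In limma, 0 of 25115 features passed, the smallest adjusted p was 0.782, and 641 features (2.55%) had an unadjusted p under 0.05. Among genes with a current symbol the 5 smallest unadjusted p-values belonged to Cldn15 (-0.96, -1.37 to -0.54), Foxo3 (-1.66, -2.41 to -0.90), Slc6a4 (-1.07, -1.61 to -0.54), Nab2 (0.75, 0.37 to 1.14) and Zfp712, a zinc finger gene (1.03, 0.50 to 1.56). Zfp712 measured -2.13 and -2.10 with saline and -1.48 and -1.46 with oleic acid at 1.5 h.

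Each time has its own saline mice, so the differences can be set side by side. Ddit4 differed by -0.25 at 1 h, -2.07 at 1.5 h, 0.06 at 3 h, -0.50 at 4 h, 0.56 at 18 h and 0.41 at 24 h. Slc7a11, undetected in the saline mice of 1.5 h, differed by -0.61 at 1 h, 3.01 at 1.5 h, -0.30 at 3 h and 1.77 at 4 h. Il1b differed by -0.58 at 1 h, 1.2 at 1.5 h and 1.13 at 3 h. Of these genes, Il1b alone was higher with oleic acid at both 1.5 h and 3 h. Platelet genes had a median of -0.05 at 1 h, -0.76 at 1.5 h and 0.41 at 3 h, and Ppbp itself differed by 0.08, -1.07 and 0.81. Glucocorticoid targets had a median of -0.04 at 1 h and -0.12 at 3 h, fat cell genes 0.04 and 0.67, neutrophil genes -0.21 and 0.38, Nrf2 genes -0.01 and 0.04, and interferon genes -0.25 and 0.24. The larger medians of 1.5 h were therefore not seen at the same size and sign at both neighbouring times in any of these lists, a difference between times that was not tested for lists.

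**Figure D5:**
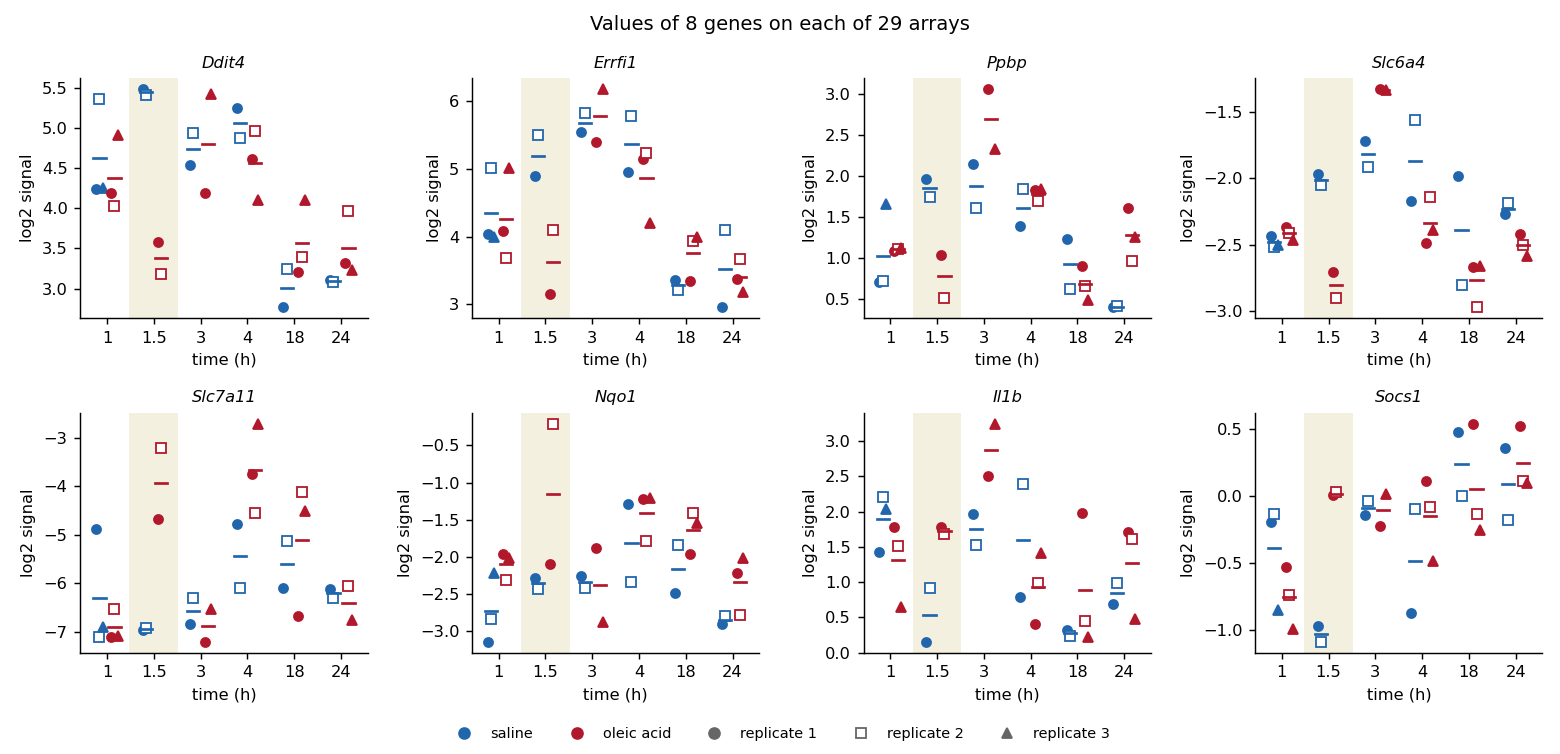
Values (log2 processed signal minus the array's 75th percentile) of 8 genes on each of the 29 arrays by time in hours; blue is saline, red oleic acid, circles, squares and triangles are replicates 1, 2 and 3, lines are group means and the shaded column is 1.5 h. Ddit4 shows the 2 saline mice of 1.5 h near the top of the series (5.48 and 5.41), Slc7a11 is at -4.67 and -3.20 in the treated mice of 1.5 h, and the Socs1 values of the saline mice of 1.5 h (-0.97 and -1.09) lie near the bottom.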

How the data were processed

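RNA (200 ng) from each lung was labelled with Cy3. The scanner files of the authors, made by Agilent Feature Extraction (version 10.5.1.1, from the submitters' processing notes), hold an intensity per spot, and per the file headers the processed signal was corrected for background by that software. Flags are 0 or 1, kept as other values in the deposited files. The deposited series values of the authors are log2 values whose sorted columns differed by at most 0.0179; over the arrays fitted they correlated with the log2 mean signal at r of at least 0.989, and the background treatment is not stated.

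In R 4.3.3 (version 1.17.8 of data.table), outlier spots were left out, 59305 non-control spots were averaged to 55681 probes, and a probe was kept if all arrays of some group had it well above background. The brightest probe stood for its gene. RefSeq accessions named 26582 probes and the files' symbols 3094. Another 26005 had no current symbol. limma 3.58.1 (statmod 1.5.0) fitted 12 group means, and the fit was tested on simulated data. Floors for dim probes are the lowest signal above background of any probe on each array, so folds from them are not strict limits. Nothing beyond 1 mouse per array says how the replicates were reared. The p-values rest on the spread between mice within groups over all 29 arrays, not on the 4 mice of 1.5 h alone. Named genes were first the 10 smallest unadjusted p in each direction without overlap. The 5 smallest p of the comparison with 1 and 3 h were added. Others came from the first 4 members of each of 43 lists and up to 4 more with the smallest p. Not all of these members, and not all lists, are given in the text. Cxcl10, Ifit1, Ifit3, Rsad2 and Mt1 are named for their promoters. The members and lists were chosen with earlier results of these data known. Alternatives covered scaling, background, filters, probe choice, slide, replicate number, weights, arrays in the fit and each array left out.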

Additional observations from a re-analysis of the deposited data

How the results depend on the processing

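Among the other settings, an adjusted p under 0.01 and an added difference of at least 1 only tightened the threshold of the main fit. Their count of 0 was fixed in advance, here and in the comparison with 1 and 3 h. With these included, the count of passing features at 1.5 h was 0 under 21 of 27 other settings. It was 2 with quantile normalization (Prdm12, adjusted p = 0.0376, and an unnamed transcript) and 1 with the mean of a gene's probes (unnamed). It lay between 0 and 5 with 1 array left out, 5 without saline replicate 2 (Tsr2 and 4 unnamed) and 3 without oleic acid replicate 1 (Gm2710, Ces1g and Gm11595). Chosen after seeing the data, leaving out 4 arrays of other times with over 70% of spots above background gave 6, Prdm12 among them. Median centring with only the 4 arrays of 1.5 h, chosen in the same way, gave 324 (37 higher, 287 lower), with Ddit4 (adjusted p = 0.0110), Slc7a11, Prdm12 and Nppa among them, while either choice alone gave 0. In that fit these genes shared 1 standard error, 0.455, so features ranked by the size of the difference and not by their own spread, dim probes included. Tsr2, Gm2710, Ces1g and Gm11595 were singled out after their values were seen. The comparison with 1 and 3 h gave 0 under 22 of 24 settings, 2 without oleic acid replicate 1 (0 to 2 over single arrays) and 2 without the 4 arrays named. With the replicate number as a block, which in these labels only names the mice (r = -0.0189 between same-numbered deviations), the count was 0 in both, with 393 and 627 features at an unadjusted p under 0.05.

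Of 80 named genes, differences turned sign as follows, and the cause was not tested. With the saline arrays of 1.5 and 3 h on slide 2 as the control, Fastkd3 was -0.035, Adipoq 0.20, Srxn1 -0.088, Txnrd1 -0.013, Gclc -0.19, Ccl2 -0.039, Ptgs2 -0.37, Fos -0.93 and Egr1 -1.22. With 31 arrays Tsc22d3 was 0.13, Fkbp5 1.09, Ptgs2 -0.13 and Scnn1a 0.11. With median centring, in 29 or 4 arrays, Scnn1a was 0.11 and Sftpc 0.14. With slide fixed Fos was -0.43, and with the mean of probes Nab2 was -0.10. With 1 array left out Fkbp5 lay between -1.25 and 0.17, Fos between -0.43 and 0.88 and Sftpc between -0.31 and 0.0090. List medians changed sign under at least 1 setting for 31 of 43 lists and under none for 12. Those 12 were the glucocorticoid, platelet, fat cell, heart muscle, Nrf2, interferon and neutrophil lists, and also these: T cell, cell cycle, clock, fibroblast and matrix, and monocyte and interstitial macrophage. Probes under background give no measured size.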
